A study of Mus musculus with 15 samples.

Results

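Lysosomes are the acidic compartments in which a cell breaks down proteins, lipids and sugar chains delivered by endocytosis and autophagy. The results below concern 34 genes for lysosomal hydrolases, lysosomal membrane proteins, the proton pump and a regulator of the compartment, taken by symbol from the 17527 genes of the deposited table; all 34 were found. RNA from the livers of mice was sequenced in 15 libraries, 5 in each of 3 groups. Control mice were set against mice with a steatohepatitis raised by diet (model) and against mice on that diet that were also given biotransformed bear bile powder (BBBPH). Fat made up 60% of the energy of that diet, protein and carbohydrate 20% each, and cholesterol was added at 0.2%, while the drinking water carried sugar at 42 g/L, of which 55% was sucrose and 45% fructose. It ran for 20 weeks in model and BBBPH mice alike. From week 12 on, BBBPH mice were given 150 mg/kg of the powder by mouth each day and model mice received saline. The food of the control mice, and the strain, sex and age of all mice, are not given in the sources used here. The dosed group held 14 mice, and 5 libraries stand for it. The labels do not say outright that each library came from its own mouse, so p-values measure the spread between these libraries. Libraries rested on 35395711 to 39624159 fragments, and counts of single members in single libraries ran from 103 fragments (Sgsh) to 35629 (Lamp1).

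Most lysosomal enzymes are made as glycoproteins and reach the lysosome through the mannose 6-phosphate receptors, while membrane proteins carry sorting signals in their tails. Transcription of many of these genes is raised by TFEB and its relatives, which bind an E-box-like sequence known as the CLEAR element. In the liver, hepatocytes use lysosomes to digest lipid droplets and lipoprotein cholesterol, and Kupffer cells, the resident macrophages, are rich in them. In whole-liver RNA, fewer cells of a type and less RNA per cell cannot be told apart.

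Because such elements stand near many genes of this class, start sites of the members were searched for the E-box core CACGTG and for 3 longer forms of the CLEAR element, TCACGTG, TCACGTGA and the latter with G before and C after it. Each form was searched on both strands and contains the shorter ones. RefSeq windows of 250 bases before to 50 bases after a start (GRCm38.p6) were held for 30 of the 34 members; Ctsb, Ctsh, Npc1 and Asah1 had none. CACGTG stood in windows of 11 of these 30 members (36.7%), against 2187 of 27025 genes with a window (8.09%). TCACGTG stood in 10 of 30 (33.3% against 4.29%), TCACGTGA in 5 of 30 (16.7% against 1.12%) and the longest form in 0 of 30 (against 0.37%). A match describes letters only, and no binding was measured. The following 30-base stretches, read 5′ to 3′ along the gene's strand with the E-box core in capitals, come from the 8 members that carried TCACGTG and had the smallest adjusted p in any comparison, and 1 match is shown for each.
Sgsh (chr11:119355522-119355551, - strand): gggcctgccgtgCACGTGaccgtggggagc
Ctsd (chr7:142387908-142387937, - strand): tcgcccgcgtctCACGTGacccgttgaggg
Naglu (chr11:101070009-101070038, + strand): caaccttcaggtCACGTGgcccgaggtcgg
Gla (chrX:134601182-134601211, - strand): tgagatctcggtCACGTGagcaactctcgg
Glb1 (chr9:114401018-114401047, + strand): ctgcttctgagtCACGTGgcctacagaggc
Mcoln1 (chr8:3500462-3500491, + strand): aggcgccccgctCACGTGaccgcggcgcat
Ctsa (chr2:164833749-164833778, + strand): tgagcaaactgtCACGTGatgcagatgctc
Atp6v0d1 (chr8:105566050-105566079, - strand): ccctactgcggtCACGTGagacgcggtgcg

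Lamp1 was added after its matches had been seen, since its 75 bases before the start held 4 copies of the core, the most among the members.
Lamp1 (chr8:13159086-13159160, + strand): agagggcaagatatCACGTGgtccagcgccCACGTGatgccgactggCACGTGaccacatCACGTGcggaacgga
Lgmn held 1 match and Ctsl held the core without the flanking base, at -236 from its start. By the RefSeq starts, all of the 18 core matches but 1 in Ctsa began before the start site. By the outermost starts of the GENCODE M21 annotation, 11 of the 18 did, and the other 7 (in Ctsd, Naglu, Mcoln1, Ctsa, Lgmn and Ctsl, those printed for Ctsd, Naglu, Mcoln1 and Ctsa among them) began inside the gene. The 11 members with the core did not move in 1 direction. In model against control, 5 of the 11 rose and 2 fell, with a median log2 fold change of 0.20, and of the 18 tested members whose windows lacked it 9 rose and 0 fell, with a median of 0.25. Over all genes tested 29.9% rose and 8.64% fell in that comparison. In BBBPH against model, 4 of the 11 rose and 2 fell (median 0.08), and of the 18 without it 1 rose and 2 fell (median -0.02), where 14.2% of all genes rose and 12.2% fell.

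**Figure D1:**
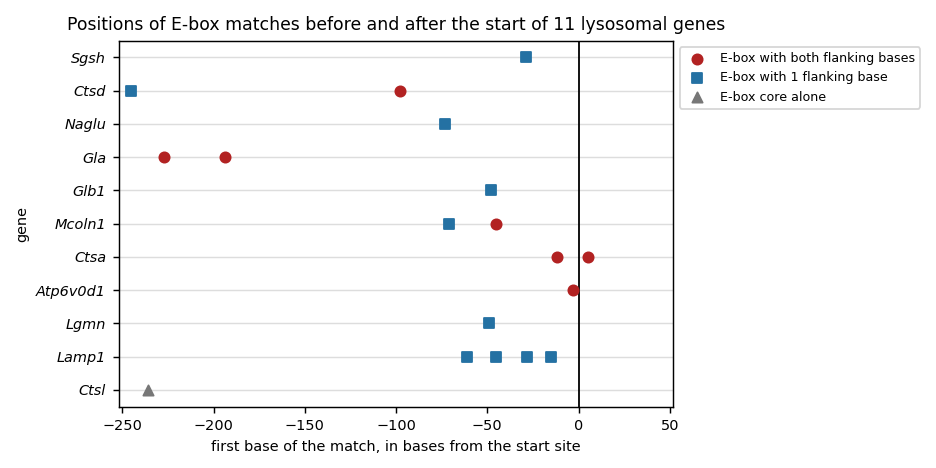
Positions of E-box core matches in the windows of 11 lysosomal genes, in bases from the RefSeq start site (vertical line), with 1 row per gene and the symbol showing how many flanking bases of the CLEAR element stand beside the core. The 4 matches of Lamp1 lie between -61 and -15, and the single match of Ctsl lies at -236.

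Levels differed widely between members. FPKM values are fragment counts scaled to gene length and library depth, so a level also depends on the length assigned to the gene. These lengths, recovered from the values, were 7548 bases for Tfeb, 9588 for Gusb and 11154 for Ctsc, against 1917 for Ctsd. Tfeb held 201 to 387 fragments a library, against 115 to 309 for Gla. The order below is one of FPKM and not of fragment counts. Averaged over the 15 libraries, Lamp1 stood highest at 391 FPKM, followed by Ctsb at 335, Psap at 244, Ctsd at 233 and Ctsh at 205. Of the 34 members 9 averaged over 100 FPKM and 8 under 10 FPKM, and Tfeb, at 0.951 FPKM, stood lowest. The median level of the 33 members with a mean of at least 1 FPKM was 29.9 FPKM, against 6.77 FPKM for all 9575 genes at or above that minimum. Within groups the members varied about as much as other genes, with a median SD of 0.14 on the log2 scale against 0.15 for all genes tested. The spread was widest for Cd63 (0.34), Ctsc (0.27), Cd68 (0.25) and Ctss (0.25) and narrowest for Psap (0.07). The sum over all 34 genes had a range of 2283 to 2551 FPKM in control libraries, of 2627 to 2953 in those of the model and of 2451 to 2902 with BBBPH.

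**Figure D2:**
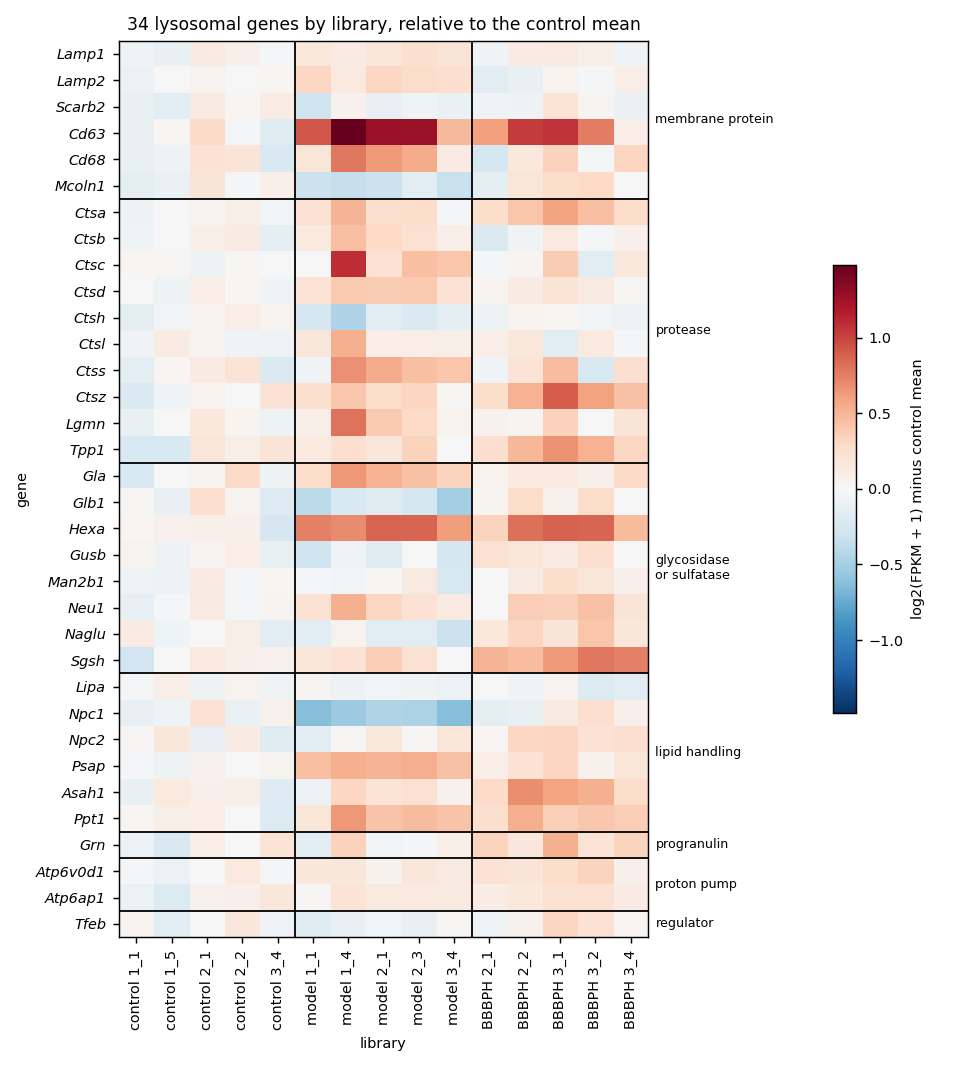
Level of 34 lysosomal genes (rows, grouped by role) in 15 libraries (columns), as log2(FPKM + 1) minus the control mean of the gene, red above and blue below it. Npc1 is blue in all 5 model libraries, Psap and Hexa are red in all 5, and Sgsh is reddest in BBBPH libraries.

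Model livers were first compared with control livers, the question being how these genes differ after the diet. Psap, the precursor of the saposins, Hexa, a subunit of beta-hexosaminidase, and the tetraspanin Cd63 were higher in model livers, and Npc1, the membrane protein through which cholesterol leaves the lysosome, was lower. By limma on log2(FPKM + 1), fitted over all 9575 genes and adjusted by Benjamini and Hochberg, 15 of the 33 members tested rose and 4 fell at an adjusted p under 0.05. Of all genes tested, 29.9% rose and 8.64% fell. The median log2 fold change was 0.20 for the members and 0.12 for all genes tested. Libraries of the 2 groups did not overlap for 8 members, and this held for 23.9% of all genes. Median-ratio scaling moved the median of all genes from 0.12 to -0.01 in this comparison and from 0.13 to -0.01 in BBBPH against control. With it 6 members rose and 9 fell, and with quantile scaling 8 rose and 6 fell, so the split between rises and falls depended on the scaling. Rises numbered 8 without control 1_1, control 3_4 or model 1_4, and 9 without control 1_5, model 2_1 or model 2_3.

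Between BBBPH and model mice, which share the diet, the question was what differs with the powder. Npc1, the heparan sulfate enzymes Naglu and Sgsh, the galactosidase Glb1, the glucuronidase Gusb and the calcium channel Mcoln1 were higher in dosed livers, and Psap and Lamp2 were lower. In all, 8 of 33 members rose and 5 fell, where 14.2% of all genes rose and 12.2% fell. The median log2 fold change was 0.04 for the members and 0.02 for all genes. The 2 groups did not overlap for 9 members, against 17.0% of all genes. The counts were the same with median-ratio scaling (8 and 5), and 7 and 5 with quantile scaling, but single libraries moved the split. It was 10 and 2 without BBBPH 2_1, 8 and 2 without model 2_1, 8 and 3 without model 1_4 or 2_3, 6 and 3 without BBBPH 2_2 or 3_2, 6 and 7 without model 1_1, and 7 and 7 without model 3_4.

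BBBPH libraries were also set against control libraries, which differ from them by both diet and powder. Sgsh, Hexa, Cd63, Ctsz and Asah1 stood higher in dosed livers, and no member fell. Of the 33 members 13 rose, and 24.4% of all genes did. By limma 0 members fell, where 3.7% of all genes fell, and 0 were lower at an unadjusted p under 0.05, and voom, a fit to the recovered whole fragments, also gave 13 rises and 0 falls. The median log2 fold change was 0.14 for the members and 0.13 for all genes. The groups did not overlap for 9 members, against 17.5% of all genes. With median-ratio scaling 5 members rose and 2 fell, and with quantile scaling 8 rose and 0 fell. These scalings called 16.8% and 16.1% of all genes, against 28.1% in the limma fit described. These comparisons share groups with each other, so their values are placed side by side below without a test across them.

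**Figure D3:**
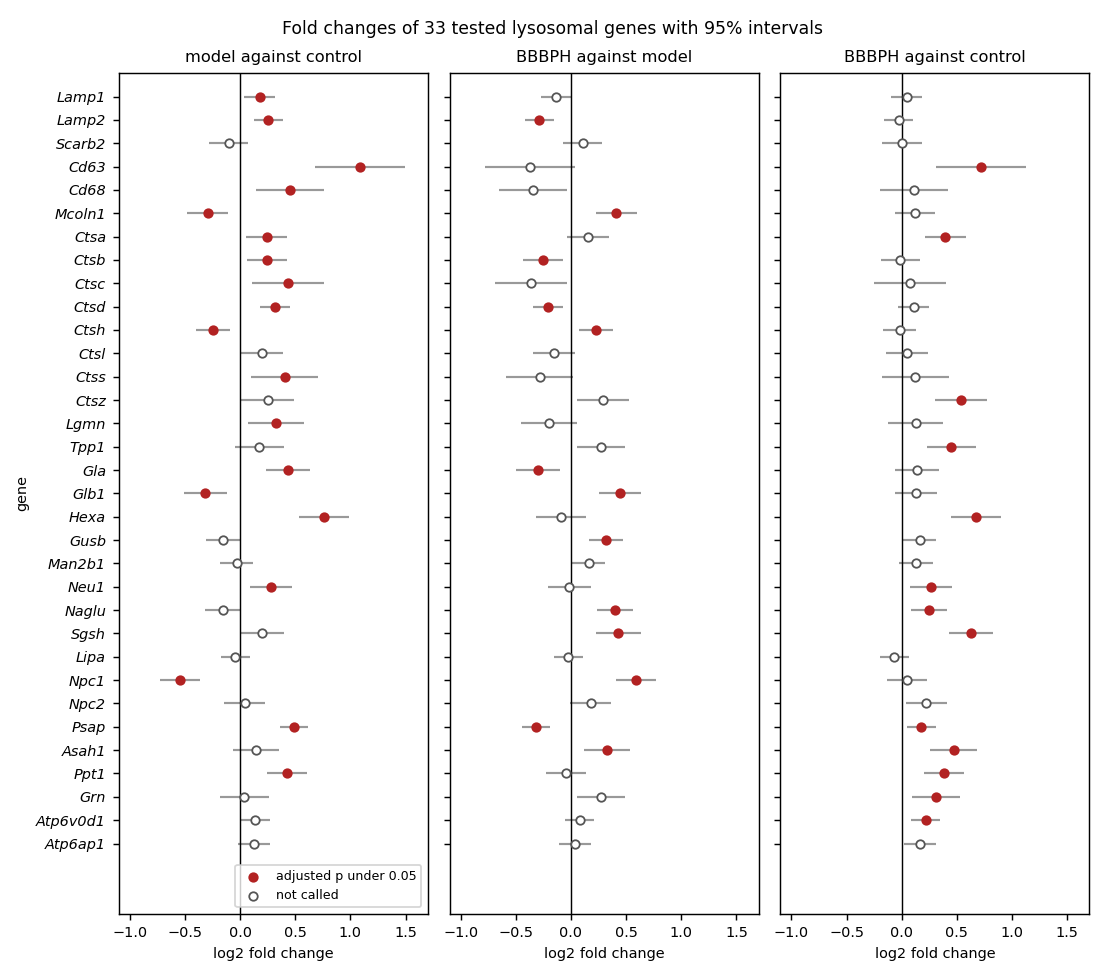
Log2 fold change (points, on the log2(FPKM + 1) scale) and 95% interval (lines) of 33 lysosomal genes in 3 comparisons, filled red where the adjusted p was under 0.05. Npc1 lies at -0.54 in model against control and at 0.59 in BBBPH against model, and no red point lies left of 0 in BBBPH against control.

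Values below are listed by library in the order 1_1, 1_5, 2_1, 2_2 and 3_4 for control, 1_1, 1_4, 2_1, 2_3 and 3_4 for model, and 2_1, 2_2, 3_1, 3_2 and 3_4 for BBBPH, and a fold change carries its standard error. Adjusted p-values are from limma throughout. Among the membrane proteins, 4 of 6 rose and 1 fell in model against control, where 29.9% of all genes rose and 8.64% fell. Lamp1 and Lamp2 are heavily glycosylated proteins that line the inner face of the lysosomal membrane, and Lamp2 also has a form that takes up proteins in chaperone-mediated autophagy. Lamp1 stood at 354, 343, 406, 390.5 and 363 FPKM in the control libraries, at 413, 402, 418, 437 and 423 in those of the model and at 357, 402, 406, 392 and 356 with BBBPH. Lamp2 stood at 93.7, 100.1, 104, 99.8 and 102 FPKM in the control libraries, at 124, 111, 124, 121 and 119 in those of the model and at 89.4, 92.4, 103, 97.8 and 107 with BBBPH. All 5 model libraries lay above all control and all BBBPH libraries for Lamp2, whereas for Lamp1 model and control libraries overlapped. For Lamp1, log2 fold changes were 0.18 ± 0.07 (adjusted p = 0.0441) in model against control, -0.13 ± 0.07 (adjusted p = 0.156) in BBBPH against model and 0.04 ± 0.07 (adjusted p = 0.631) in BBBPH against control. For Lamp2, log2 fold changes were 0.26 ± 0.06 (adjusted p = 0.00465) in model against control, -0.29 ± 0.06 (adjusted p = 0.00335) in BBBPH against model and -0.03 ± 0.06 (adjusted p = 0.756) in BBBPH against control. Control and BBBPH libraries overlapped for Lamp2, with a 95% interval of -0.16 to 0.10 for the difference. With median-ratio scaling this difference was -0.20 (adjusted p = 0.0342).

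Cd63, a tetraspanin of late endosomes and exosomes, showed the largest rise among the members in model against control. Cd63 stood at 2.65, 3.02, 3.78, 2.85 and 2.48 FPKM in the control libraries, at 6.47, 9.995, 8.55, 8.54 and 4.5 in those of the model and at 5.01, 7.08, 7.29, 5.68 and 3.22 with BBBPH. Each model library lay above each control library. BBBPH 3_4 lay inside the control range, and the other 4 BBBPH libraries lay above it and overlapped with the model range. For Cd63, log2 fold changes were 1.09 ± 0.19 (adjusted p = 0.000552) in model against control, -0.37 ± 0.19 (adjusted p = 0.17) in BBBPH against model and 0.72 ± 0.19 (adjusted p = 0.0133) in BBBPH against control. Cd68, known as macrosialin, is a lysosomal membrane protein of macrophages. Cd68 stood at 15.4, 15.7, 19.5, 19 and 14.1 FPKM in the control libraries, at 18.9, 29.4, 26.2, 24.8 and 18.2 in those of the model and at 13.7, 18.6, 21.4, 16.4 and 21 with BBBPH. Model 3_4 and 1_1 lay within the control range for Cd68, and the other 3 model libraries lay above it. For Cd68, log2 fold changes were 0.45 ± 0.14 (adjusted p = 0.0214) in model against control, -0.34 ± 0.14 (adjusted p = 0.0911) in BBBPH against model and 0.11 ± 0.14 (adjusted p = 0.59) in BBBPH against control. Mcoln1 averaged 16 ± 1.61 FPKM in the control group, 12.9 ± 0.749 in the model group and 17.5 ± 2.26 with BBBPH (SD, n = 5). Mcoln1, the calcium channel TRPML1, was lower in all 5 model libraries than in any control or BBBPH library. For Mcoln1, log2 fold changes were -0.29 ± 0.09 (adjusted p = 0.0148) in model against control, 0.41 ± 0.09 (adjusted p = 0.00273) in BBBPH against model and 0.12 ± 0.09 (adjusted p = 0.32) in BBBPH against control. Scarb2 averaged 58.9 ± 5.4 FPKM in the control group, 54.7 ± 5.01 in the model group and 59 ± 5.38 with BBBPH (SD, n = 5). Scarb2, also called LIMP-2, carries glucocerebrosidase to the lysosome and was not called in any comparison of the fit described, with log2 fold changes of -0.10, 0.11 and 0.00 (adjusted p = 0.341, 0.377 and 0.987) in the same order. With median-ratio scaling Scarb2 was lower in model against control, at -0.26 (adjusted p = 0.0216).

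**Figure D4:**
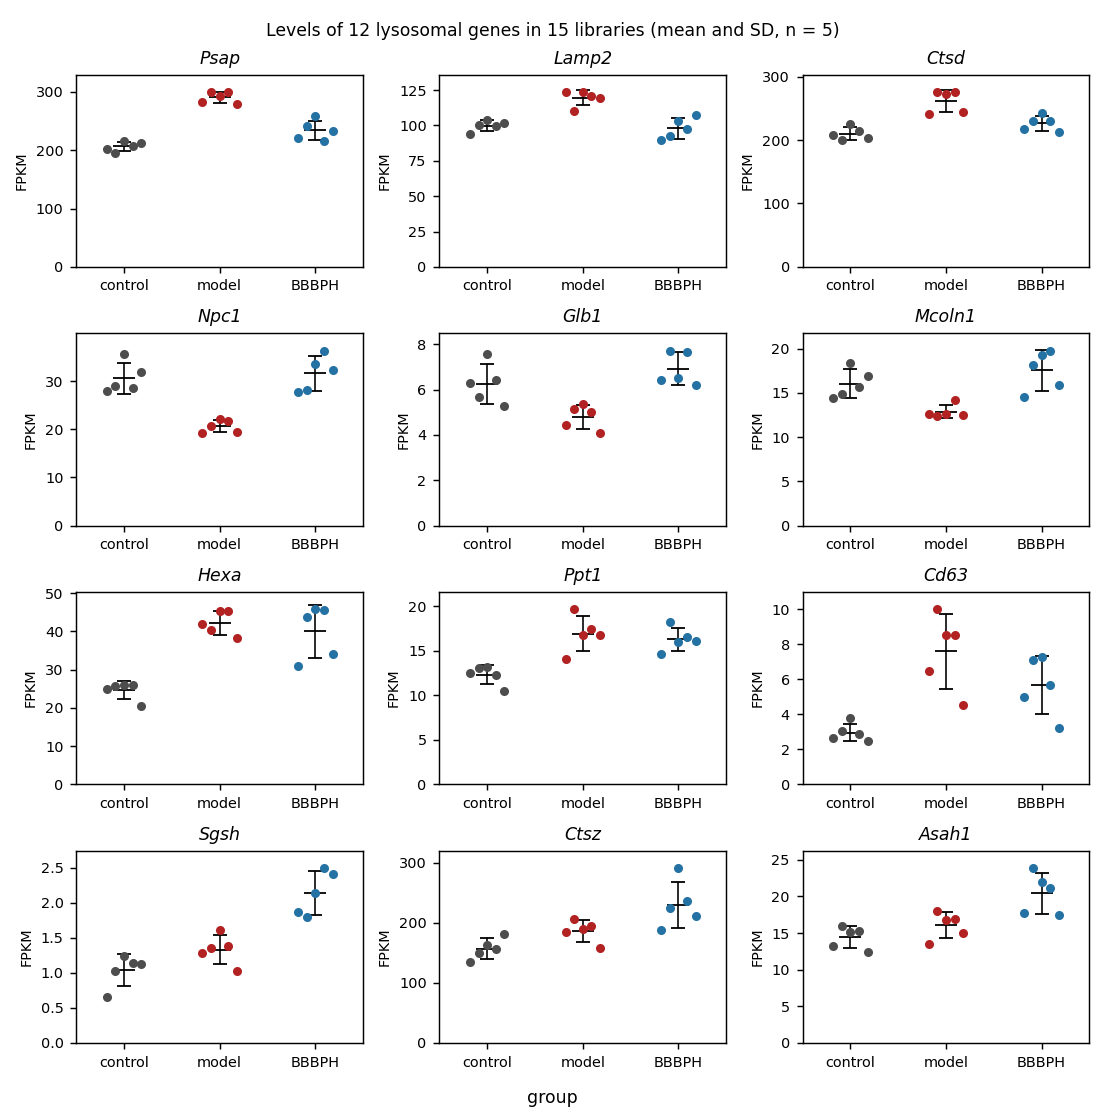
Level in FPKM of 12 lysosomal genes, with 1 point per library in control, model and BBBPH groups and bars for the mean and SD (n = 5). Psap, Lamp2 and Ctsd are highest in model, Npc1, Glb1 and Mcoln1 lowest in model, Hexa, Ppt1 and Cd63 higher in both diet-fed groups than in control, and Sgsh, Ctsz and Asah1 highest with BBBPH, all by their means.

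Proteases made up 10 of the members, of which 6 rose and 1 fell in model against control. In BBBPH against model 1 rose and 2 fell, and in BBBPH against control 3 rose and 0 fell. Of all genes tested, 29.9%, 14.2% and 24.4% rose in these comparisons, and 8.64%, 12.2% and 3.7% fell. Ctsd, the main aspartic protease of the lysosome, and Ctsb, an abundant cysteine protease, were high in every library. Ctsd stood at 208, 199.6, 225, 215 and 203 FPKM in the control libraries, at 241, 276, 273, 275 and 244 in those of the model and at 217, 229, 243, 229.8 and 213 with BBBPH. Ctsb stood at 301, 313, 335, 343 and 289 FPKM in the control libraries, at 348, 431, 389, 368 and 337 in those of the model and at 272, 304, 349, 311 and 333 with BBBPH. For Ctsd all model libraries lay above all control libraries, and BBBPH libraries overlapped with both groups. For Ctsd, log2 fold changes were 0.31 ± 0.06 (adjusted p = 0.00157) in model against control, -0.21 ± 0.06 (adjusted p = 0.0263) in BBBPH against model and 0.11 ± 0.06 (adjusted p = 0.226) in BBBPH against control. For Ctsb, log2 fold changes were 0.24 ± 0.08 (adjusted p = 0.0343) in model against control, -0.25 ± 0.08 (adjusted p = 0.0367) in BBBPH against model and -0.01 ± 0.08 (adjusted p = 0.925) in BBBPH against control. Ctsh, a cysteine aminopeptidase, went the other way. Ctsh averaged 217 ± 14.3 FPKM in the control group, 183 ± 16 in the model group and 214 ± 9.12 with BBBPH (SD, n = 5). For Ctsh, log2 fold changes were -0.24 ± 0.07 (adjusted p = 0.0142) in model against control, 0.23 ± 0.07 (adjusted p = 0.0301) in BBBPH against model and -0.02 ± 0.07 (adjusted p = 0.859) in BBBPH against control.

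Ctss, Ctsc and Lgmn are proteases known for their roles in immune cells: Ctss and Lgmn take part in antigen processing, and Ctsc activates granule proteases. Ctss stood at 43.3, 48.8, 52.3, 55.4 and 41.1 FPKM in the control libraries, at 46.1, 77.4, 70.5, 65.4 and 64.1 in those of the model and at 46.1, 55.1, 66.4, 40.8 and 56.6 with BBBPH. Model 1_1 lay within the control range and the other 4 model libraries lay above it. For Ctss, log2 fold changes were 0.41 ± 0.14 (adjusted p = 0.0351) in model against control, -0.28 ± 0.14 (adjusted p = 0.162) in BBBPH against model and 0.12 ± 0.14 (adjusted p = 0.536) in BBBPH against control. Ctsc averaged 10.8 ± 0.364 FPKM in the control group, 15.4 ± 5.13 in the model group and 11.5 ± 1.82 with BBBPH (SD, n = 5). Model 1_4 held 24.1 FPKM of Ctsc against 10.7 to 15.03 in the other model libraries. For Ctsc, log2 fold changes were 0.44 ± 0.15 (adjusted p = 0.0348) in model against control, -0.36 ± 0.15 (adjusted p = 0.0978) in BBBPH against model and 0.08 ± 0.15 (adjusted p = 0.733) in BBBPH against control. Lgmn averaged 48 ± 3.58 FPKM in the control group, 61.3 ± 13.9 in the model group and 52.5 ± 5.27 with BBBPH (SD, n = 5), again with model 1_4 highest at 84.2 FPKM. For Lgmn, log2 fold changes were 0.32 ± 0.12 (adjusted p = 0.0415) in model against control, -0.20 ± 0.12 (adjusted p = 0.236) in BBBPH against model and 0.12 ± 0.12 (adjusted p = 0.446) in BBBPH against control. Ctsl, the cathepsin L gene, was not called in any comparison. Ctsl stood at 136, 152, 145, 135 and 135 FPKM in the control libraries, at 158, 203, 151, 149.8 and 149 in those of the model and at 149.8, 157, 126, 155 and 139 with BBBPH. Apart from model 1_4, model libraries stood at 149 to 158 FPKM of Ctsl and overlapped with both other groups. For Ctsl, log2 fold changes were 0.20 ± 0.09 (adjusted p = 0.0936) in model against control, -0.15 ± 0.09 (adjusted p = 0.232) in BBBPH against model and 0.05 ± 0.09 (adjusted p = 0.731) in BBBPH against control.

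Another 3 proteases had their highest group mean in dosed livers. Ctsz is a carboxypeptidase of the cathepsin family. Ctsz stood at 135, 149.9, 162, 157 and 182 FPKM in the control libraries, at 185, 207, 189.9, 195 and 158 in those of the model and at 188, 224, 291, 237 and 212 with BBBPH. Every BBBPH library lay above every control library for Ctsz, and model libraries lay between with overlap on both sides. For Ctsz, log2 fold changes were 0.25 ± 0.11 (adjusted p = 0.0875) in model against control, 0.29 ± 0.11 (adjusted p = 0.0669) in BBBPH against model and 0.54 ± 0.11 (adjusted p = 0.00339) in BBBPH against control. Ctsa averaged 39.8 ± 1.9 FPKM in the control group, 47.6 ± 6.32 in the model group and 52.9 ± 5.29 with BBBPH (SD, n = 5). Ctsa encodes the protective protein that holds the galactosidase Glb1 and the sialidase Neu1 in a complex. For Ctsa, log2 fold changes were 0.24 ± 0.09 (adjusted p = 0.0416) in model against control, 0.15 ± 0.09 (adjusted p = 0.22) in BBBPH against model and 0.40 ± 0.09 (adjusted p = 0.00535) in BBBPH against control. Tpp1 averaged 25.1 ± 3.68 FPKM in the control group, 28.3 ± 2.5 in the model group and 34.5 ± 4.21 with BBBPH (SD, n = 5). For Tpp1, log2 fold changes were 0.18 ± 0.10 (adjusted p = 0.192) in model against control, 0.27 ± 0.10 (adjusted p = 0.0655) in BBBPH against model and 0.45 ± 0.10 (adjusted p = 0.00646) in BBBPH against control. Tpp1, a tripeptidyl peptidase, and Ctsa did not overlap between BBBPH and control libraries.

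Of the 8 glycosidases and sulfatases, 3 rose and 1 fell in model against control (37.5% and 12.5%), where 29.9% and 8.64% of all genes did. In BBBPH against model 4 rose and 1 fell (50% and 12.5%), against 14.2% and 12.2% of all genes. In BBBPH against control 4 rose and 0 fell (50% and 0%), against 24.4% and 3.7%. Hexa encodes the alpha subunit of beta-hexosaminidase, which trims gangliosides. Hexa stood at 25, 25.7, 26, 25.9 and 20.4 FPKM in the control libraries, at 41.8, 40.5, 45.3, 45.4 and 38.2 in those of the model and at 31, 43.9, 45.8, 45.5 and 34.2 with BBBPH. All model and all BBBPH libraries lay above all control libraries, and those of model and BBBPH overlapped. For Hexa, log2 fold changes were 0.76 ± 0.11 (adjusted p = 0.000106) in model against control, -0.09 ± 0.11 (adjusted p = 0.585) in BBBPH against model and 0.67 ± 0.11 (adjusted p = 0.000791) in BBBPH against control. Neu1, the lysosomal sialidase, and Gla, alpha-galactosidase A, also rose in model against control. Neu1 averaged 8.24 ± 0.614 FPKM in the control group, 10.3 ± 1.25 in the model group and 10.2 ± 1.32 with BBBPH (SD, n = 5). For Neu1, log2 fold changes were 0.28 ± 0.09 (adjusted p = 0.0243) in model against control, -0.01 ± 0.09 (adjusted p = 0.928) in BBBPH against model and 0.27 ± 0.09 (adjusted p = 0.0402) in BBBPH against control. Gla averaged 1.42 ± 0.32 FPKM in the control group, 2.27 ± 0.341 in the model group and 1.66 ± 0.174 with BBBPH (SD, n = 5). For Gla, log2 fold changes were 0.44 ± 0.09 (adjusted p = 0.00212) in model against control, -0.30 ± 0.09 (adjusted p = 0.0293) in BBBPH against model and 0.14 ± 0.09 (adjusted p = 0.267) in BBBPH against control. Glb1, the lysosomal beta-galactosidase, fell in model against control. Glb1 stood at 6.3, 5.66, 7.57, 6.4 and 5.29 FPKM in the control libraries, at 4.44, 5.14, 5.36, 5.03 and 4.08 in those of the model and at 6.44, 7.72, 6.53, 7.68 and 6.19 with BBBPH. Model and control libraries overlapped for Glb1, and BBBPH libraries all lay above model libraries. For Glb1, log2 fold changes were -0.32 ± 0.09 (adjusted p = 0.013) in model against control, 0.45 ± 0.09 (adjusted p = 0.00223) in BBBPH against model and 0.13 ± 0.09 (adjusted p = 0.295) in BBBPH against control.

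Naglu and Sgsh act in the stepwise breakdown of heparan sulfate, a sugar chain of the cell surface and matrix. Naglu stood at 8.39, 7.29, 7.64, 8.2 and 6.77 FPKM in the control libraries, at 6.74, 7.96, 6.67, 6.73 and 5.91 in those of the model and at 8.6, 9.74, 8.85, 10.5 and 8.72 with BBBPH. Sgsh stood at 0.66, 1.03, 1.24, 1.14 and 1.12 FPKM in the control libraries, at 1.29, 1.36, 1.61, 1.38 and 1.03 in those of the model and at 1.87, 1.79, 2.14, 2.49 and 2.42 with BBBPH. For both genes every BBBPH library lay above every model library and every control library. For Naglu, log2 fold changes were -0.15 ± 0.08 (adjusted p = 0.133) in model against control, 0.40 ± 0.08 (adjusted p = 0.00157) in BBBPH against model and 0.25 ± 0.08 (adjusted p = 0.0274) in BBBPH against control. For Sgsh, log2 fold changes were 0.20 ± 0.09 (adjusted p = 0.111) in model against control, 0.43 ± 0.09 (adjusted p = 0.00374) in BBBPH against model and 0.63 ± 0.09 (adjusted p = 0.000569) in BBBPH against control. Mean levels of Sgsh were 1.04 FPKM for control, 1.33 for model and 2.14 for dosed livers, values at which the log2(FPKM + 1) scale understates a fold change, as it does for Gla. Gusb, beta-glucuronidase, which also acts on such chains, rose in BBBPH against model. Gusb stood at 3.69, 3.31, 3.66, 3.83 and 3.18 FPKM in the control libraries, at 2.69, 3.37, 3, 3.56 and 2.81 in those of the model and at 4.3, 4.12, 3.97, 4.4 and 3.56 with BBBPH. The 5 BBBPH libraries stood above the 5 model libraries, by 0.00507 FPKM between the nearest, and overlapped with control. For Gusb, log2 fold changes were -0.15 ± 0.07 (adjusted p = 0.103) in model against control, 0.31 ± 0.07 (adjusted p = 0.00475) in BBBPH against model and 0.16 ± 0.07 (adjusted p = 0.107) in BBBPH against control. Man2b1 averaged 26.2 ± 1.46 FPKM in the control group, 25.7 ± 2.43 in the model group and 28.8 ± 2.01 with BBBPH (SD, n = 5). Man2b1, a mannosidase, was not called in any comparison, with log2 fold changes of -0.03, 0.16 and 0.13 (adjusted p = 0.753, 0.114 and 0.188) in the same order, but with median-ratio scaling it was lower in model against control, at -0.18 (adjusted p = 0.0267). Gusb and Naglu were lower in that comparison with the same scaling, at -0.28 and -0.29 (adjusted p = 0.00493 and 0.0068), and with quantile scaling, at -0.29 and -0.28 (adjusted p = 0.00313 and 0.00665).

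The 6 genes of lipid handling included Psap and Npc1, which moved in opposite directions in both comparisons with model livers. Psap is cut into the saposins, small proteins that present sphingolipids to the lysosomal hydrolases. Psap stood at 202, 196, 216, 207 and 212 FPKM in the control libraries, at 283, 299, 293, 299.8 and 279.7 in those of the model and at 222, 241, 259, 216 and 233 with BBBPH. All model libraries lay above all BBBPH libraries, and BBBPH libraries reached down to the top of the control range, with a gap of 0.021 FPKM between the nearest libraries. For Psap, log2 fold changes were 0.49 ± 0.06 (adjusted p = 3.67e-05) in model against control, -0.31 ± 0.06 (adjusted p = 0.0015) in BBBPH against model and 0.18 ± 0.06 (adjusted p = 0.0407) in BBBPH against control. Npc1 carries cholesterol across the lysosomal membrane after Npc2, its soluble partner, has picked it up. Npc1 stood at 28, 29.1, 35.7, 28.6 and 31.9 FPKM in the control libraries, at 19.3, 20.8, 22.1, 21.7 and 19.4 in those of the model and at 27.7, 28.3, 33.7, 36.4 and 32.2 with BBBPH. No model library overlapped with either other group. For Npc1, log2 fold changes were -0.54 ± 0.08 (adjusted p = 0.000224) in model against control, 0.59 ± 0.08 (adjusted p = 0.000182) in BBBPH against model and 0.04 ± 0.08 (adjusted p = 0.726) in BBBPH against control. Control and BBBPH levels of Npc1 differed by a log2 fold change with a 95% interval of -0.14 to 0.22.

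Npc2 was not called where Npc1 was. Npc2 stood at 28.3, 31.4, 25.5, 30.6 and 24.4 FPKM in the control libraries, at 24.9, 28.2, 31.3, 28.3 and 31.9 in those of the model and at 28.4, 34.7, 35, 32.5 and 33.5 with BBBPH. For Npc2, log2 fold changes were 0.04 ± 0.09 (adjusted p = 0.716) in model against control, 0.18 ± 0.09 (adjusted p = 0.145) in BBBPH against model and 0.22 ± 0.09 (adjusted p = 0.0662) in BBBPH against control. Lipa, the acid lipase that frees cholesterol and fatty acids from lipoproteins and droplets, was not called in the fit described. Lipa stood at 91.4, 99.9, 88.6, 96.2 and 90.01 FPKM in the control libraries, at 95.5, 88.5, 90.7, 89.5 and 87.4 in those of the model and at 93.4, 89.7, 96.6, 81 and 83.6 with BBBPH. Libraries of the 3 groups overlapped throughout, and 95% intervals of the log2 fold change were -0.18 to 0.09 in model against control, -0.16 to 0.11 in BBBPH against model and -0.20 to 0.06 in BBBPH against control (adjusted p = 0.59, 0.799 and 0.409). With median-ratio scaling Lipa was lower in model and in BBBPH than in control libraries, at -0.20 and -0.24 (adjusted p = 0.0381 and 0.0287). Asah1, the acid ceramidase, stood highest with the powder. Asah1 stood at 13.2, 16, 15.2, 15.3 and 12.4 FPKM in the control libraries, at 13.5, 18.1, 16.7, 16.9 and 15.1 in those of the model and at 17.7, 23.9, 22, 21.2 and 17.5 with BBBPH. BBBPH libraries did not overlap with control libraries. For Asah1, log2 fold changes were 0.14 ± 0.10 (adjusted p = 0.265) in model against control, 0.33 ± 0.10 (adjusted p = 0.0249) in BBBPH against model and 0.47 ± 0.10 (adjusted p = 0.00394) in BBBPH against control. Ppt1 averaged 12.3 ± 1.08 FPKM in the control group, 16.9 ± 1.99 in the model group and 16.3 ± 1.3 with BBBPH (SD, n = 5). Ppt1 removes fatty acids from proteins, and both diet-fed groups lay above control without overlap. For Ppt1, log2 fold changes were 0.43 ± 0.08 (adjusted p = 0.00125) in model against control, -0.05 ± 0.08 (adjusted p = 0.724) in BBBPH against model and 0.38 ± 0.08 (adjusted p = 0.00511) in BBBPH against control.

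Progranulin, encoded by Grn, is a secreted protein that is also cut into granulins in the lysosome. Grn stood at 96, 87.2, 109, 102 and 118 FPKM in the control libraries, at 90.5, 129, 99, 101 and 108 in those of the model and at 128, 115, 148, 117 and 128 with BBBPH. BBBPH libraries overlapped with both other groups for Grn. For Grn, log2 fold changes were 0.04 ± 0.10 (adjusted p = 0.783) in model against control, 0.27 ± 0.10 (adjusted p = 0.0643) in BBBPH against model and 0.31 ± 0.10 (adjusted p = 0.0356) in BBBPH against control. Of the proton pump, Atp6v0d1 encodes a subunit of the membrane sector and Atp6ap1 an accessory protein. Atp6v0d1 stood at 47.4, 45.3, 48.4, 53.3 and 47.2 FPKM in the control libraries, at 54.3, 54.2, 50.6, 54.1 and 52.9 in those of the model and at 56.2, 55.2, 58.6, 61.1 and 50.7 with BBBPH. For Atp6v0d1, log2 fold changes were 0.14 ± 0.06 (adjusted p = 0.0864) in model against control, 0.08 ± 0.06 (adjusted p = 0.369) in BBBPH against model and 0.22 ± 0.06 (adjusted p = 0.0172) in BBBPH against control. Atp6ap1 averaged 19.6 ± 2.05 FPKM in the control group, 21.4 ± 1.02 in the model group and 22.1 ± 0.921 with BBBPH (SD, n = 5). For Atp6ap1, log2 fold changes were 0.13 ± 0.07 (adjusted p = 0.152) in model against control, 0.04 ± 0.07 (adjusted p = 0.705) in BBBPH against model and 0.17 ± 0.07 (adjusted p = 0.0781) in BBBPH against control. Tfeb, the transcription factor, had a mean below 1 FPKM and so was not in the fit. Tfeb stood at 0.983, 0.726, 0.944, 1.17 and 0.868 FPKM in the control libraries, at 0.703, 0.772, 0.882, 0.787 and 0.949 in those of the model and at 0.845, 1.02, 1.4, 1.24 and 0.966 with BBBPH. Its groups overlapped. In the fit without a minimum level, over 17051 genes, Tfeb had log2 fold changes of -0.09, 0.20 and 0.11 in the same order (adjusted p = 0.446, 0.0943 and 0.377), on a scale that understates changes near 1 FPKM.

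Calls near the threshold ended without single libraries, with other scalings and in other fits. In model against control, calls of 8 members (Cd63, Ctsd, Gla, Glb1, Hexa, Npc1, Psap and Ppt1) held in all 28 alternatives other than those with a replicate block. The call of Lamp1 ended without control 1_1, 1_5 or 3_4, model 1_1, 2_1, 2_3 or 3_4, BBBPH 2_2 or 3_2 (adjusted p = 0.0531 to 0.102). That of Cd68 ended without control 3_4, model 1_4 or 2_1 (adjusted p = 0.0533 to 0.055), that of Ctsa without control 1_1, 1_5, 2_1 or 3_4, model 1_1, 1_4, 2_1 or 2_3, BBBPH 2_2 (adjusted p = 0.0503 to 0.102) and that of Ctsb without control 1_1, 1_5 or 3_4, model 1_4, 2_1 or 2_3 (adjusted p = 0.0555 to 0.0772). Ctsc lost its call without control 1_1, 1_5, 2_1, 2_2 or 3_4, model 1_4, 2_3 or 3_4 (adjusted p = 0.0518 to 0.0648) and Ctss without control 1_1, 1_5 or 3_4, model 1_4, 2_1, 2_3 or 3_4 (adjusted p = 0.0544 to 0.0837). Lgmn lost it without control 1_1, 1_5, 2_2 or 3_4, model 1_4, 2_1 or 2_3 (adjusted p = 0.0609 to 0.0867) and Neu1 without control 1_1, model 1_4 (adjusted p = 0.06 to 0.062). Without model 1_4 the log2 fold changes of Ctsc and Lgmn were 0.27 and 0.21. Counts of calls were 12 without control 1_1 or 3_4, 12 without model 1_4 and BBBPH 2_2 together, and 11 without control 2_1 as well; Mcoln1 and Ctsh lost theirs in the last setting (adjusted p = 0.0838 and 0.0661). Median-ratio scaling ended the calls of the same 8 members, Lamp1, Cd68, Ctsa, Ctsb, Ctsc, Ctss, Lgmn and Neu1 (adjusted p = 0.843, 0.0841, 0.435, 0.418, 0.161, 0.164, 0.279 and 0.21), and that of Lamp2 (adjusted p = 0.215). Under it the log2 fold change of Lamp1 was 0.02. Quantile scaling ended those of Lamp1, Cd68, Ctsa, Ctsc, Ctss, Lgmn and Neu1 (adjusted p = 0.0614, 0.0671, 0.308, 0.153, 0.124, 0.199 and 0.181). The 2-group fit ended those of Lamp1 and Lgmn, and the fit without a minimum level those of Ctsa, Ctsc, Ctss and Lgmn. Calls were also gained: besides Scarb2, Gusb, Man2b1, Naglu and Lipa, named above, Ctsz passed without model 3_4 or BBBPH 3_1, Naglu without model 1_4 and Atp6v0d1 without control 2_2, and Ctsz, Naglu and Sgsh passed with library weights.

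In BBBPH against model, the calls of Lamp2, Mcoln1, Glb1, Gusb, Naglu, Sgsh, Npc1 and Psap held in all of the same 28 alternatives that tested them. The call of Ctsb ended without model 1_4, 2_1 or 2_3, BBBPH 2_1, 2_2 or 3_2 (adjusted p = 0.058 to 0.0887) and that of Ctsd without model 2_1 or 2_3, BBBPH 2_1 or 3_4 (adjusted p = 0.0546 to 0.0631). Ctsh lost its call without model 1_1 or 1_4, BBBPH 2_2, 3_1 or 3_2 (adjusted p = 0.0506 to 0.073), Gla without model 1_4 or 2_1, BBBPH 2_1, 2_2 or 3_2 (adjusted p = 0.0502 to 0.0742) and Asah1 without model 1_1 or 3_4, BBBPH 2_2, 3_1 or 3_2 (adjusted p = 0.0526 to 0.0687). Quantile scaling ended the call of Ctsh as well (adjusted p = 0.0857), and the 2-group fit that of Ctsb. Without model 1_4 and BBBPH 2_2 together, Ctsb, Ctsd, Ctsh and Gla lost theirs. Gained there were the falls of Cd63 and Cd68 without model 3_4 and of Ctsc and Ctss without model 1_1, and the rises of Ctsz and Tpp1 without BBBPH 2_1 and of Grn without model 1_4. In BBBPH against control, the calls of Cd63, Ctsz, Hexa, Sgsh and Asah1 held in all of the 28 that tested them. The call of Psap ended without control 1_1, 1_5, 2_2 or 3_4, model 2_1, BBBPH 2_2, 3_1 or 3_4 (adjusted p = 0.0501 to 0.099) and that of Neu1 without control 1_1, 1_5, 2_2 or 3_4, BBBPH 2_2, 3_1 or 3_2 (adjusted p = 0.0556 to 0.105). Naglu lost its call without control 1_5 or 3_4, BBBPH 2_2 or 3_2 (adjusted p = 0.057 to 0.0766) and Grn without control 1_1, 1_5 or 2_2, BBBPH 2_1, 3_1 or 3_4 (adjusted p = 0.0532 to 0.0862). Median-ratio scaling ended the calls of these 4 members too (adjusted p = 0.988, 0.394, 0.42 and 0.423 for Psap, Neu1, Naglu and Grn), with a log2 fold change of 0.002 for Psap, and those of Ctsa, Tpp1, Ppt1 and Atp6v0d1 (adjusted p = 0.0719, 0.0574, 0.0565 and 0.655). Quantile scaling ended those of Psap, Neu1, Naglu, Grn and Atp6v0d1 (adjusted p = 0.387, 0.318, 0.337, 0.236 and 0.178). The rise of Npc2 was called without control 1_5 or BBBPH 2_1, and that of Atp6ap1 without control 3_4.

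A list of 107 other lysosome genes, written from general knowledge of the pathway, was read in the same fit. Of the 98 tested, 34 rose and 6 fell in model against control, 15 rose and 7 fell in BBBPH against model, and 39 rose and 1 fell in BBBPH against control. These are 34.7% and 6.12%, 15.3% and 7.14%, and 39.8% and 1.02% of the list, where 29.9% and 8.64%, 14.2% and 12.2%, and 24.4% and 3.7% of all genes tested rose and fell. Their median log2 fold changes were 0.15, 0.07 and 0.20, against 0.12, 0.02 and 0.13 for all genes tested. With median-ratio scaling the counts were 20 and 15, 14 and 8, and 11 and 4. The share of all genes called went from 38.6%, 26.5% and 28.1% to 34.4%, 27.6% and 16.8% with it. In BBBPH against model the count fell to 7 rises and 6 falls without BBBPH 2_2, to 7 and 7 without BBBPH 3_2 and to 9 and 7 without BBBPH 3_1. Of all genes 21.9%, 22.1% and 22.9% were called in these 3 settings. Gm2a averaged 31.4 ± 2.64 FPKM in the control group, 19.2 ± 1.73 in the model group and 24.9 ± 2.5 with BBBPH (SD, n = 5). Gm2a, an activator protein of ganglioside breakdown, was lower in both diet-fed groups than in control, with log2 fold changes of -0.69, 0.36 and -0.32 (adjusted p = 2.83e-05, 0.00449 and 0.0101) in model against control, BBBPH against model and BBBPH against control. The lysosomal membrane protein genes Laptm4b and Laptm5 had log2 fold changes of 0.72, -0.37 and 0.35 (adjusted p = 4.89e-05, 0.00789 and 0.0131) and of 0.59, -0.38 and 0.21 (adjusted p = 0.000996, 0.0217 and 0.174). For the glycoprotein gene Creg1 they were 0.67, -0.51 and 0.16 (adjusted p = 0.00216, 0.0166 and 0.414).

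Sidt2 encodes another lysosomal membrane protein. Sidt2 averaged 35.4 ± 2.43 FPKM in the control group, 25.1 ± 2.14 in the model group and 35.2 ± 3.28 with BBBPH (SD, n = 5), and its log2 fold changes were -0.48, 0.47 and -0.01 (adjusted p = 0.000285, 0.000469 and 0.942) in the same order. Plbd2, a lysosomal hydrolase, had -0.27, 0.39 and 0.11 (adjusted p = 0.0136, 0.00234 and 0.298), and Slc17a5, the sialic acid exporter, -0.28, 0.20 and -0.08 (adjusted p = 0.0107, 0.077 and 0.43). The peptidase gene Dpp7 and the amino acid transporter gene Slc36a1 stood highest in dosed livers, with 0.22, 0.40 and 0.62 (adjusted p = 0.126, 0.0159 and 0.00148) for Dpp7 and 0.48, 0.31 and 0.80 (adjusted p = 0.00945, 0.0954 and 0.000923) for Slc36a1. Of 14 tested proton pump subunits outside the members, 5 rose and 0 fell in model against control, 1 rose and 3 fell in BBBPH against model, and 3 rose and 0 fell in BBBPH against control. The shares that rose were 35.7%, 7.14% and 21.4%, against 29.9%, 14.2% and 24.4% of all genes. Those that fell were 0%, 21.4% and 0%, against 8.64%, 12.2% and 3.7%. Of 13 tested relatives of TFEB and regulators of mTORC1 at the lysosome, 3 rose and 0 fell, 2 rose and 0 fell, and 5 rose and 0 fell. Their shares that rose (23.1%, 15.4% and 38.5%) can be read against the same shares of all genes that rose. Of 16 tested autophagy genes, 5 rose and 2 fell, 6 rose and 5 fell, and 6 rose and 0 fell. So 31.2%, 37.5% and 37.5% of them rose, against 29.9%, 14.2% and 24.4% of all genes. The shares that fell were 12.5%, 31.2% and 0%, against 8.64%, 12.2% and 3.7%. Sqstm1, the autophagy receptor p62, was named after its values had been seen: it averaged 59.2 ± 8.57 FPKM in the control group, 113 ± 8.41 in the model group and 60.2 ± 6.34 with BBBPH (SD, n = 5), with log2 fold changes of 0.93, -0.90 and 0.03 (adjusted p = 8.97e-06, 1.72e-05 and 0.839).

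Markers of other liver cells were read in the same fit. Of all genes tested, 29.9% rose and 8.64% fell in model against control. In BBBPH against model 14.2% rose and 12.2% fell, and in BBBPH against control 24.4% rose and 3.7% fell. Of 14 Kupffer cell and macrophage markers, 1 (Mpeg1) rose and 0 fell in model against control, 2 (Marco and Timd4) rose and 1 (Mpeg1) fell in BBBPH against model, and 1 (Marco) rose in BBBPH against control. Their summed level had a range of 481 to 645 FPKM in control libraries, of 518 to 853 in those of the model and of 581 to 996 with BBBPH, and none of the 14 was at 0 in any library. Adgre1, the gene of the macrophage antigen F4/80, had log2 fold changes of 0.21, 0.00 and 0.20 (adjusted p = 0.246, 0.996 and 0.273). Those of Clec4f, a Kupffer cell lectin, were 0.06, 0.02 and 0.08 (adjusted p = 0.764, 0.935 and 0.702), of Csf1r 0.14, 0.06 and 0.20 (adjusted p = 0.423, 0.777 and 0.273) and of Lyz2 0.37, 0.08 and 0.45 (adjusted p = 0.155, 0.803 and 0.104). Of the 6 tested markers of lipid-associated macrophages, 3 rose and 1 fell in model against control, 0 rose and 3 fell in BBBPH against model, and 1 fell in BBBPH against control. Their summed level, with the 1 marker below the minimum, had a range of 65.01 to 159.6 FPKM in control libraries, of 40.1 to 321 in those of the model and of 44.96 to 75.7 with BBBPH. The falls from control were those of Fabp5, a fatty acid binding protein gene, at a mean of 73.3 FPKM in control, 13.4 in model and 16.6 in dosed livers. Trem2 stood at 0.387, 1.14, 0.796, 0.706 and 0.419 FPKM in the control libraries, at 1.48, 2.82, 2.44, 2.63 and 1.32 in those of the model and at 0.365, 1.46, 0.812, 1.24 and 0.595 with BBBPH. Gpnmb stood at 0.0724, 0.157, 0.188, 0.0988 and 0.2 FPKM in the control libraries, at 1.78, 2.35, 3.12, 4.04 and 0.49 in those of the model and at 0.28, 2.28, 0.444, 1.19 and 0.165 with BBBPH. In model libraries Trem2 and Gpnmb lay above all control libraries, and BBBPH libraries overlapped with both groups. For Trem2, log2 fold changes were 0.88 ± 0.18 (adjusted p = 0.00163) in model against control, -0.73 ± 0.18 (adjusted p = 0.00789) in BBBPH against model and 0.15 ± 0.18 (adjusted p = 0.552) in BBBPH against control. For Gpnmb, log2 fold changes were 1.44 ± 0.30 (adjusted p = 0.00172) in model against control, -0.84 ± 0.30 (adjusted p = 0.0485) in BBBPH against model and 0.60 ± 0.30 (adjusted p = 0.144) in BBBPH against control. The part of these cells in the rises of Cd68, Ctss, Ctsc, Lgmn and Cd63 was not tested.

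Of 7 hepatocyte markers 4 fell in model against control, with a sum of 31639 to 54940.3 FPKM in model against 60136 to 68445 in control and 54801 to 64805 in BBBPH libraries. Alb averaged 46492 ± 3176 FPKM in the control group, 32629 ± 7861 in the model group and 40250 ± 3093 with BBBPH (SD, n = 5), and its log2 fold changes were -0.55, 0.34 and -0.21 (adjusted p = 0.00868, 0.103 and 0.297). In model against control 2 of 4 tested neutrophil markers and 5 of 5 stellate cell markers rose. Of all genes 29.9% rose and 8.64% fell there. Of 5 markers of sinusoidal endothelium, 2 (Stab2 and Lyve1) rose and 1 (Kdr) fell. In BBBPH against model, 2 of 5 stellate cell markers fell (Dcn and Col14a1), Lyve1 fell by 1.26 (adjusted p = 5.55e-05), Kdr rose, and of the hepatocyte markers Apoa1 rose and Hnf4a fell. In BBBPH against control, 2 stellate cell markers (Reln and Pdgfrb) and Apoa1 rose, and 2 hepatocyte markers (Cps1 and Hnf4a) fell. All genes tested rose in 14.2% and fell in 12.2% of cases in BBBPH against model, and in 24.4% and 3.7% in BBBPH against control. Of cholangiocyte, T and NK cell, and B and plasma cell markers 1 each was tested, and none was called in any comparison. Libraries with RNA of another tissue stood out: markers of exocrine pancreas summed to 2274 FPKM in BBBPH 2_2, and those of skeletal muscle to 259.8 FPKM in control 2_1. What part the cell mixture has in the members' changes was not tested.

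**Figure D5:**
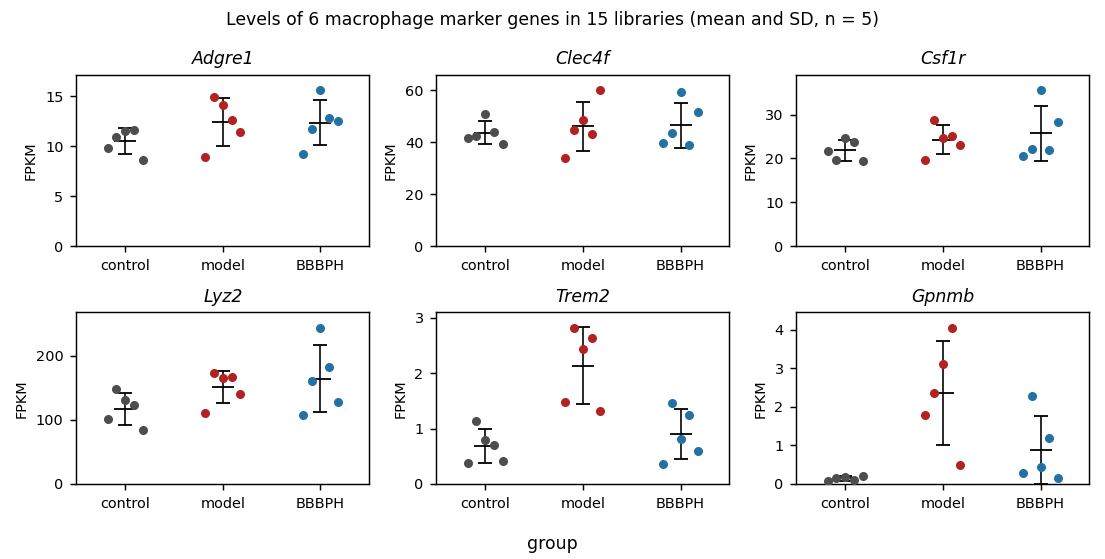
Level in FPKM of 6 macrophage marker genes, with 1 point per library in control, model and BBBPH groups and bars for the mean and SD (n = 5). Adgre1, Clec4f, Csf1r and Lyz2 overlap between all groups, while Trem2 and Gpnmb are higher in every model library than in any control library.

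All 34 members are protein-coding genes of the GENCODE M21 annotation of GRCm38. Among those the results turn on, Psap at chromosome 10, 60277627 to 60302597, Hexa at chromosome 9, 59539540 to 59565109, Lamp2 at chromosome X, 38401357 to 38456454, Cd63 at chromosome 10, 128900989 to 128912822, Naglu at chromosome 11, 101070012 to 101077672 and Sgsh at chromosome 11, 119343425 to 119355536 were placed there. Values are per gene, and the strand setting is not given in the sources used here, so reads of overlapping genes cannot be told apart. Exons of 12 members overlap with exons of another gene. The overlap covers 34.4% of the exonic bases of Ctsd (with Gm49369 on the same strand), 26.8% of Ctsl (with an antisense gene), 21.6% of Sgsh (with Card14), 12.8% of Ctsb (with Fdft1), 12.8% of Hexa (with Tmem202) and 10.5% of Ctsa (with Pltp), and at most 9.31% in the others. The lengths behind the FPKM differ from these GENCODE totals, as for Ctsb (1976 against 6051 bases), so the shares need not hold for the deposited values. How far the overlaps affect the values of these 12 genes is not known.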

How the data were processed

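Mouse liver RNA was sequenced in 15 libraries, 5 a group. The deposited values are FPKM, computed by the authors for each library with no pooling seen in the files. Tools named in the submitters' processing notes are HISAT2, HTSeq, fastp and DESeq2, with mm10 as the build, and no version is named. Annotation, filters and strand setting are not given in the sources used here. The series table and the single files held equal values.

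Libraries were grouped by title. The 9575 genes that averaged 1 FPKM or more entered limma 3.58.1 (R 4.3.3) on log2(FPKM + 1), with 3 group means, 12 residual degrees of freedom and a trended eBayes prior. P-values are 2-sided, with Benjamini-Hochberg adjustment per comparison, and intervals are 95% from that fit. The pseudocount of 1 shrinks fold changes of genes near 1 FPKM. Depth and whole fragments were recovered from the steps of the FPKM values for 15525 genes (100% of values above 0 lay within 0.02 of a whole fragment), and voom on these fragments was an alternative. Both procedures were tested on simulated data. Chi-square per gene was 28.2 to 306.6 over the 30 pairs of libraries of 1 group, so no library repeated another of its group. Libraries of different groups were not compared in this way. Plots were drawn with matplotlib 3.10.9.

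The members and all lists were chosen with earlier results of these data known. Values by library are given for 13 fixed members and for the 4 with the smallest adjusted p in each comparison. Other lysosome genes named are the 3 largest rises and 3 largest falls called, where the higher group reached 5 FPKM. A gene that this rule names is not reported here. Alternatives were a pseudocount of 0.1, no filter, a minimum of 5 FPKM, TPM, median-ratio and quantile scaling, eBayes without trend or robust, a 2-group fit, library weights, voom, 2 kinds of replicate block, and each library, or 2 or 3 that stood apart, left out.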

Additional observations from a re-analysis of the deposited data

Results flagged for a closer look

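In 5 of 153 pairs of a gene and a group (3.27%), 1 library lay apart from the other 4 by more than Dixon's 95% limit, and chance alone gives about 1 in 20. Mcoln1 was 14.2 FPKM in model 2_3, against 12.4 to 12.7 in the other model libraries. Ctsl was 203 FPKM in model 1_4, where the others had 149 to 158. Hexa was lowest in control 3_4, at 20.42 FPKM against 24.98 to 25.96. Control 2_1, the library with muscle transcripts, held 2 of the 5 values: Ctsc was 10.1 FPKM there against 10.8 to 10.98, and Slc36a1, the amino acid transporter gene, was 4.09 FPKM against 2.61 to 3.01. No cause of these values was tested.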

How the results depend on the processing

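In some alternative 8, 7 and 4 members gained a call in the 3 comparisons. No member reversed its direction after a call in any of the 28 alternatives without a block. Of the calls, 8 of 19 in model against control, 8 of 13 in BBBPH against model and 5 of 13 in BBBPH against control held in all of the 28 that tested the gene. Gusb, Gla and Sgsh were not tested with a minimum of 5 FPKM. In model against control the members called numbered 19 and became 12 with model 1_4 and BBBPH 2_2 left out, 11 with control 2_1 left out too, and 12 to 20 with 1 library left out. In BBBPH against control 13 became 7 with median-ratio and 8 with quantile scaling. Of other lysosome genes, 22 were called in BBBPH against model, 14 and 10 with 2 and 3 libraries left out, and 13 to 24 with 1 left out. Their 40 calls in BBBPH against control became 15 with median-ratio and 13 with quantile scaling. Residuals did not show a pairing by the numbers in the titles. The 8 same-numbered pairs had residual correlations of -0.33 to 0.02, and 0 of 10 libraries correlated best with their own number. Such values cannot exclude a pairing or a batch, and the first digit was not examined in this way. With the full number as a replicate block, members called were 4, 0 and 0 in the 3 comparisons, and other lysosome genes 14, 1 and 0. The share of all genes called went from 38.6%, 26.5% and 28.1% to 13.7%, 3.19% and 1.93%. With the first digit as a replicate block, 16, 9 and 9 members were called in the 3 comparisons, with 7 rises and 2 falls in BBBPH against model. Other lysosome genes called were 41, 15 and 25, and the shares of all genes were 37.5%, 18.7% and 19.3%. A replicate block also leaves fewer than the 12 residual degrees of freedom of the main fit. No cause of these changes was tested, the smaller number of libraries included. Depth did not limit most members, but Sgsh, Gla and Cd63 rested on 103 to 512 fragments a library, and 5 libraries a group limit all calls.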
